A study of Mus musculus with 12 samples.

Results

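The Krüppel-like factors (KLFs) are zinc-finger transcription factors that bind GC-rich and CACCC elements in promoters and enhancers. The genes described here are the 10 KLF genes Klf2, Klf3, Klf4, Klf6, Klf7, Klf9, Klf10, Klf11, Klf13 and Klf16, found by their symbol in the m6A peak lists of wild-type and Mettl3-knockout microglial cells. They are 10 of 14070 named genes with a peak in either list, and they carried 38 of 36682 wild-type peaks and 38 of 41153 knockout peaks. Klf1 also had a peak in each list and is given with the relatives of the family, since it is not on the list of 10.

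The cells were BV2, an immortalised mouse microglial line, either wild type (WT) or with genotype Mettl3 KO. All of them had been treated with LPS, the bacterial lipopolysaccharide that sets off inflammatory signalling, so no unstimulated group entered. Each genotype had 3 immunoprecipitation (IP) libraries, made from polyadenylated RNA fragments caught with an m6A antibody, and 3 input libraries, 12 libraries in 4 groups. The sources used here do not give the LPS dose and time, the way the knockout was made or whether it was 1 clone. One deposited peak list per genotype was analysed, so no value below has a replicate spread and no difference between the genotypes was tested. A peak's value is the authors' log2 of IP over input, and each adjusted p is theirs. It measures how far a stretch of RNA was enriched by the antibody, and not how much of that RNA the cells made, which was not analysed here.

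The extraction protocol in the labels speaks of neuroblastoma cells. Of 13 marker genes of microglia and macrophages, 12 had a peak in both lists, with P2ry12 in neither. None of 8 markers of neurons and neuroblastoma and none of 4 astrocyte markers had a peak, and of 4 oligodendrocyte markers only Mbp did. A missing peak can mean unmarked RNA as well as absent RNA. Depth per library is unknown here.

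N6-methyladenosine (m6A) is placed on messenger RNA by the METTL3-METTL14 complex, mostly at adenosines within the motif RRACH and often around the stop codon. Reader proteins then bind the mark, and YTHDF2 in particular directs marked messages to decay. Many KLF messages are short-lived and are induced quickly by growth factors, shear stress or inflammatory signals. In macrophages KLF2 and KLF4 are known to restrain inflammatory activation, whereas KLF6 is known to promote it. The family is commonly divided by cofactor into activators such as KLF2, KLF4, KLF6 and KLF7, repressors that bind CtBP such as KLF3, and factors that bind SIN3A, to which KLF9, KLF10, KLF11, KLF13 and KLF16 belong.

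All 10 genes had peaks in both lists, as did 87.6% of all genes with a peak in either list. The 10 were chosen with earlier results of these data known, so this count is not a finding about the family. The strongest value was lower in the KO list for 9 of the 10. Klf3 alone had the higher KO value. Of all 12320 genes peaked in both lists, 73.4% were lower in KO, so most genes shared this direction. The difference, KO minus WT, had a median of -0.78 over the 10 KLF genes and of -0.25 over all genes. It was -1 or below for 3 KLF genes, Klf2, Klf4 and Klf13, and for 9.54% of all genes. Genes with strong peaks had larger differences in general. Among the 4342 genes whose WT and KO values averaged at least 1.5, 88.0% were lower in KO and 24.5% were lower by at least 1, with a median of -0.71. Of the 6 KLF genes in that class 5 were lower, 3 of them by at least 1, with a median of -1.05.

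**Figure D1:**
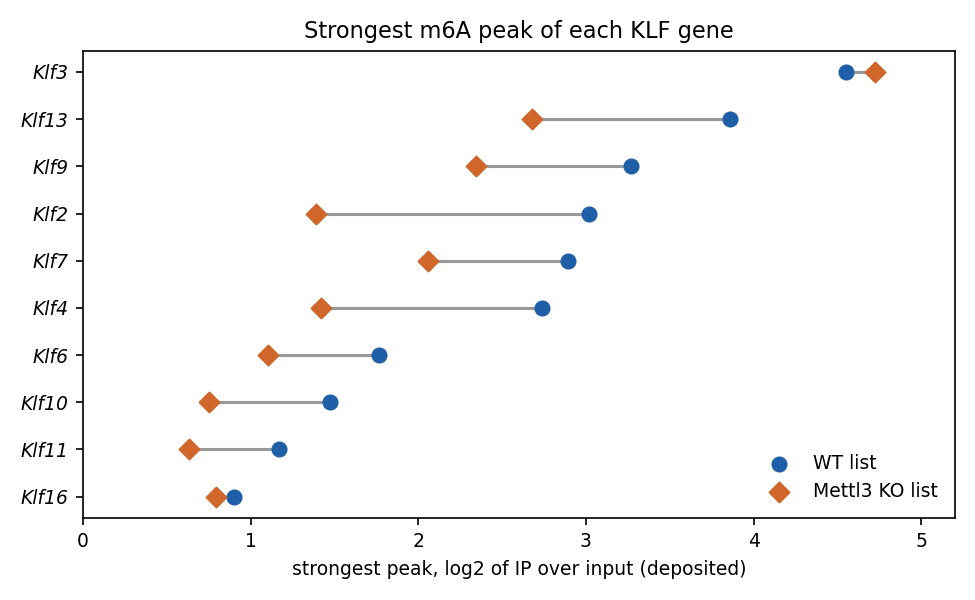
Strongest deposited peak of each KLF gene in the WT list (circles) and the Mettl3 KO list (diamonds), as log2 of IP over input; grey lines join the values of a gene, and there are no replicates. Klf3 is the only gene with the KO value to the right, and Klf2 has the longest line, from 3.02 to 1.39.

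By strongest peak, most of the KLF genes were strongly marked in the WT list. The median of their strongest peaks was a log2 of 2.82, against 1.36 for all genes with a WT peak, and 6 of 10 reached a log2 of 2, or 4-fold enrichment, as did 28.0% of all such genes. In the KO list the median was 1.41 against 1.07, and 4 of 10 reached 4-fold, against 11.4% of genes. Those 4 were Klf3, Klf13, Klf9 and Klf7, while Klf2 and Klf4 were at 4-fold in WT only. The median over single peaks differed little from that of all peaks, at 0.86 against 0.83 in WT and 0.67 against 0.70 in KO. Each of the 6 genes above had exactly 1 WT peak at 4-fold or more, beside weaker ones. Klf11 and Klf16, with strongest WT peaks of 1.17 and 0.90, lay below the median of 1.36 for all genes.

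**Figure D2:**
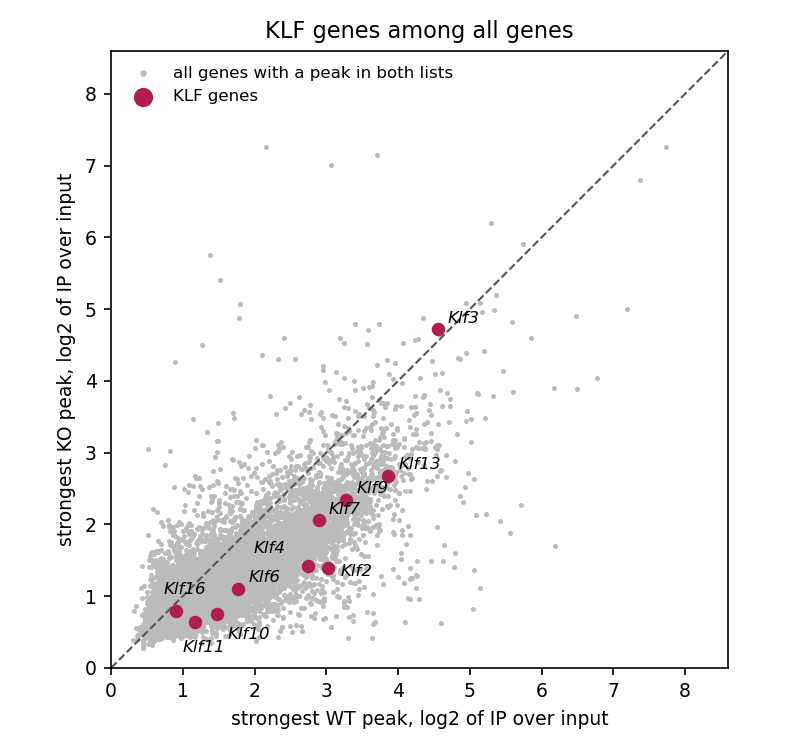
Strongest KO peak against strongest WT peak, both as log2 of IP over input, for the 12320 genes that both lists name (grey) and the 10 KLF genes (red, named); the dashed line marks equal values. Apart from Klf3, all KLF genes lie below the line, as do 73.4% of all genes.

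Among the activators, Klf2 had the largest difference of the 10 genes. It is a compact gene of 2624 bases on chromosome 8 and carried 2 peaks in each list. The stronger WT peak ran on the plus strand from 72320134 to 72321584, was annotated as 3' untranslated region (3' UTR) and had a log2 of 3.02, or 8.11-fold (adjusted p = 9.31e-228). The KO peak lay wholly inside it, from 72320935 to 72321559, with a log2 of 1.39, or 2.62-fold (adjusted p = 9.78e-33). It covered 43.1% of the WT peak, so the part of the WT peak that lies nearer the 5' end had no KO counterpart. At the 5' end of the gene a WT peak of 651 bases stood at 1.19 and a KO peak of 601 bases at 0.89. Both Klf2 peaks were thus lower in KO, with a difference of -1.63 for the one near the 3' end and of -0.30 for the one near the 5' end. Pairs of this kind, with 1 peak over 1000 bases and 1 below, were lower in KO in 75.2% of cases over all genes. Counting only peaks of at most 1000 bases leaves out the strong WT peak and turns the order of the gene, to 1.19 in WT and 1.39 in KO.

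Klf4, a pluripotency factor that also drives monocyte differentiation, had 2 WT peaks and 3 KO peaks on the minus strand of chromosome 4. The stronger WT peak extended from 55527168 to 55530250, was annotated as 3' UTR and had a log2 of 2.74, or 6.68-fold (adjusted p = 3.12e-80). The KO list had 2 separate peaks over the same stretch. The one at the 3' end, from 55527143 to 55528192, had a log2 of 1.42, and the one upstream, from 55528293 to 55530375, was annotated as exonic with 0.89. Against the WT peak the differences were -1.32 and -1.85. The 5' UTR peak stood at 1.27 in WT and 0.85 in KO. The peaks covered 79.4% of the gene in WT and 84.1% in KO, so the extents were close while each value was lower.

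Klf6, an early-response gene that is expressed in many tissues, had a strongest peak that covered most of the gene in both lists. In WT it ran on the plus strand of chromosome 13 from 5861482 to 5868278 at a log2 of 1.77 and an adjusted p listed as 0. In KO it ran from 5861557 to 5868228 with 1.10 (adjusted p = 2.24e-273), a difference of -0.66 with 98.2% of the WT peak shared. At the 3' end of the gene a peak of 141 bases in WT and of 166 bases in KO stood at 0.65 and 0.53. A weak WT peak of 0.45 just beyond the long one had no KO partner.

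Klf7, known for its part in neuronal axon growth, is the longest of the 10 genes, with 92836 bases on the minus strand of chromosome 1. Its strongest peak spanned introns as well as exons. It ran from 64042133 to 64122251 in WT with a log2 of 2.89, and from 64042133 to 64122226 in KO with 2.06 (adjusted p = 7.96e-133). The WT adjusted p was listed as 0. The next peak, from 64033347 in WT and 64034547 in KO to 64042082 in both, stood at 1.69 and 1.17. The rest of the Klf7 3' UTR held 4 weak WT peaks, between 0.42 and 0.73, and 6 weak KO peaks, between 0.39 and 0.88. Of the KO peaks, 2 lie inside the stretch that the longer second WT peak covers. The pair at the end of the gene was higher in KO, at 0.73 in WT and 0.88 in KO.

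**Figure D3:**
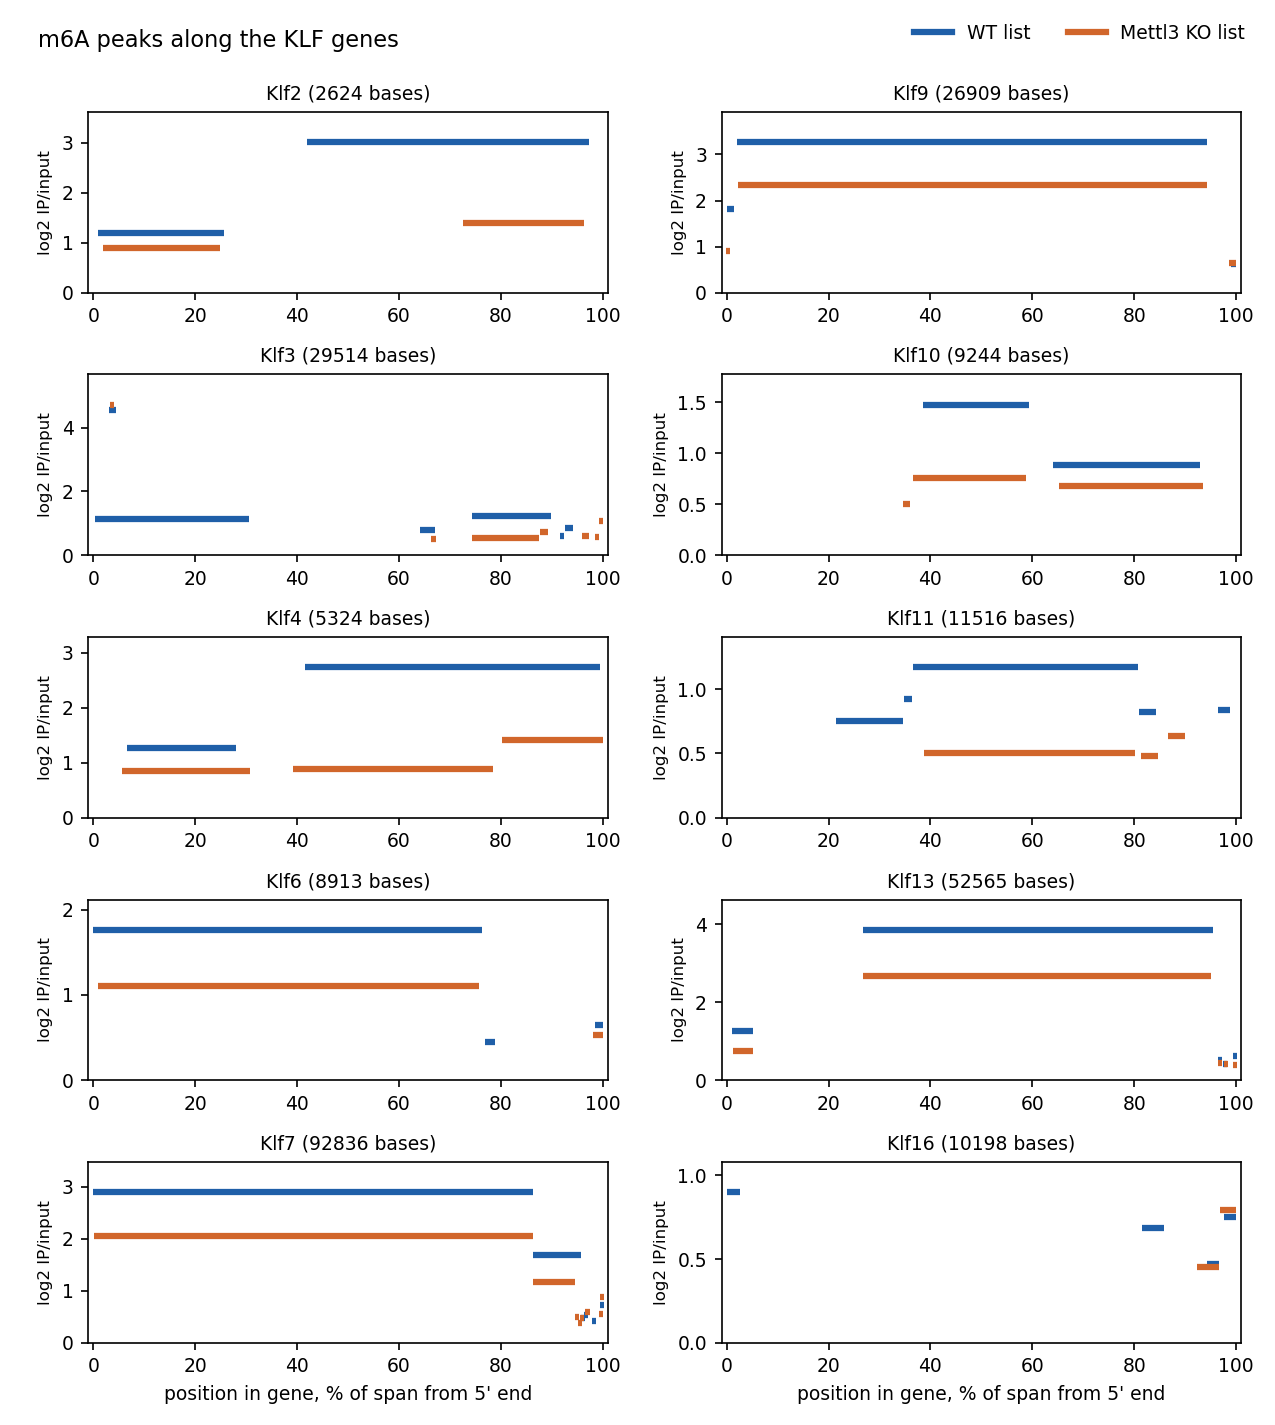
Every deposited peak of the 10 KLF genes, drawn as a bar from its start to its end in percent of the gene's genomic span from the 5' end, introns included, at the height of its log2 of IP over input; blue bars are the WT list and orange bars the Mettl3 KO list, each panel has its own vertical scale, and the shortest peaks are drawn wider than to scale. The tall WT bars of Klf7, Klf9 and Klf13 have KO bars of nearly the same extent below them, whereas the single tall Klf4 bar faces 2 KO bars.

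Klf3 encodes the CtBP-binding repressor of the set and was the exception. Its strongest peak lay in an intron near the 5' end of the gene, on the plus strand of chromosome 5. The WT peak from 64804289 to 64804713 had a log2 of 4.55, or 23.4-fold (adjusted p = 2.14e-15), and the KO peak from 64804339 to 64804613, wholly inside it, had 4.72, or 26.4-fold (adjusted p = 4.4e-08). This was the strongest peak of all KLF genes in both lists, and Klf3 ranked 112 among 13363 genes by strongest peak in WT and 27 among 13027 in KO. Its adjusted p was less extreme than those of KLF peaks with lower enrichment, such as the Klf2 peak above. Counts per peak, which would show how many fragments the value rests on, were not analysed here.

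The other matched Klf3 peaks, a long one and an exonic one, were lower in KO. The long peak annotated as 3' UTR, from 64825352 to 64829908 in WT, stood at 1.23 (adjusted p = 6.36e-28), and its KO match, from 64825352 to 64829233, at 0.55 (adjusted p = 5.45e-06). A shorter KO peak next to it, still inside the WT peak, had 0.74. The exonic peak was at 0.79 in WT and 0.49 in KO. The WT list also had a peak of 8922 bases at the 5' end of the gene, annotated as 5' UTR with 1.14, which encloses the intronic peak and had no other KO peak over it. In the last part of the 3' UTR the lists diverged, with WT peaks of 0.60 and 0.84 and KO peaks of 0.61, 0.56 and 1.06 at other positions, none of them overlapping. With the mean over all its peaks the Klf3 difference was -0.28, so its higher KO value rests on the intronic peak.

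Of the factors that bind SIN3A, Klf13, an activator of chemokine transcription in T cells, had the strongest peak. It ran on the minus strand of chromosome 7 from 63888776 to 63924822 in WT, with a log2 of 3.86, or 14.5-fold, and from 63888951 to 63924797 in KO with 2.68, or 6.41-fold. Both adjusted p values were listed as 0. The peaks shared 99.4% of the WT extent, which crosses an intron, so the difference of -1.18 compares nearly the same stretch. The 5' UTR peak, from 63936176 to 63938384 in WT, stood at 1.26 and its KO match at 0.76. Further along the 3' UTR, 3 short peaks in each list were weak and close together in value. They stood at 0.63 and 0.40, 0.42 and 0.42, and 0.51 and 0.43 in WT and KO. The first of these pairs, from 63886351 to 63886575 at the end of the gene, is the only KLF peak with identical coordinates in both lists.

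Klf9, which glucocorticoids and thyroid hormone induce, showed the same arrangement on the plus strand of chromosome 19. Its long peak, from 23141776 to 23166594 in WT and from 23141851 to 23166594 in KO, stood at 3.27 and 2.34, or 9.65-fold and 5.08-fold, with both adjusted p values listed as 0. Its short 5' UTR peak began at the annotated start of the gene in both lists. The WT peak of 400 bases had a log2 of 1.82 (adjusted p = 1.03e-33), and the KO peak of 175 bases had 0.91 (adjusted p = 6.22e-06). The peak at the 3' end was alike in both, at 0.63 and 0.65. The Klf9 difference was thus nearly the same for the long peak, -0.93, and for the short one at the start, -0.91.

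The 5' UTR peak of Klf9 is also where the sequence at hand meets a peak and the m6A motif. RefSeq start-site sequences of assembly GRCm38.p6 matched 8 of the 10 genes, and the first 50 transcribed bases lay under a peak of at least 1 list for 5 of them, Klf2, Klf3, Klf6, Klf7 and Klf9. RRACH was searched on the transcribed strand as A or G, A or G, A, C, then A, C or T. Among these 5 stretches it occurred once, in Klf9, with its first base at position 20 from the start site. Of all 32851 start-site stretches of that length, 44.6% hold it. The 30 bases around it, at chr19:23141233-23141262 on the plus strand, are shown with the motif in capitals because both the WT and the KO peak cover them.
Klf9 start: cgcggcgcggcaGGACCaggggctcagcgg
A match shows only that the letters are there. The deposited lists name no genome build, and all 10 genes overlap their RefSeq position in that assembly.

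Klf10 and Klf11, both induced by TGF-beta, were marked more weakly. Klf10 had its strongest peak on the minus strand of chromosome 15, from 38295226 to 38297150 in WT with a log2 of 1.47 (adjusted p = 4.81e-50) and from 38295276 to 38297325 in KO with 0.75 (adjusted p = 7.01e-18). Its second peak, nearer the 3' end, stood at 0.88 and 0.68, and the KO list added a weak exonic peak of 0.50. Klf11 had 5 WT peaks and 3 KO peaks on the plus strand of chromosome 12. The long one, from 24655494 to 24660574 in WT, stood at 1.17 (adjusted p = 7.58e-13) and its KO match at 0.50 (adjusted p = 0.00044). The strongest KO peak, at 0.63, lay elsewhere, from 24661250 to 24661624, without a WT partner, so the gene-level difference of -0.54 sets different places side by side. At the matched long peak the difference was -0.67. The Klf11 exonic peaks, 0.75 and 0.92 in WT, had no KO partner.

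Klf16, whose strongest WT peak was the lowest of the 10 while its KO value lay above those of Klf10 and Klf11, had 4 short WT peaks and 2 short KO peaks on the minus strand of chromosome 10. Its strongest WT peak, with 0.90, was annotated as 5' UTR, from 80577048 to 80577321 at the start of the gene, and had no KO partner. Its strongest KO peak, with 0.79, lay at the other end, from 80567124 to 80567448, where the WT value was 0.75. The matched 3' UTR peaks thus differed by 0.04 and -0.02. Relative to the median of all genes, the gene-level difference of -0.11 becomes 0.14, the opposite direction.

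The size of these differences depended on how a gene was summarised. When all peaks of a gene were averaged, all 10 KLF genes were lower in KO, against 77.2% of all genes, and the median difference was -0.38. Among peaks of at most 1000 bases, which 8 of the 10 genes had in both lists, 5 were lower in KO, against 58.2% of all genes, and the median was -0.11. Klf2, Klf3 and Klf7 were the 3 genes that were higher in KO there.

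**Figure D4:**
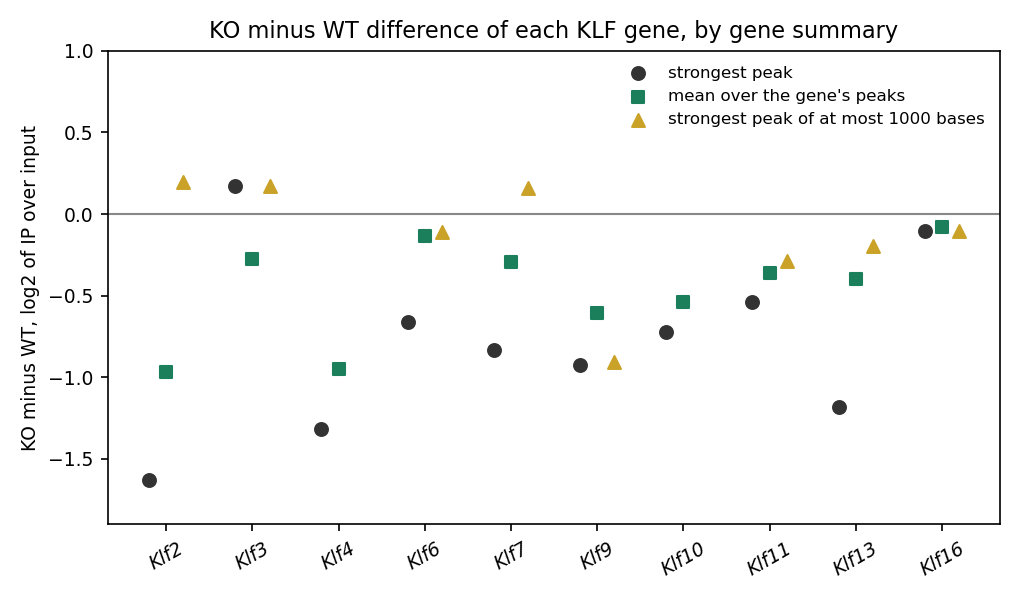
KO minus WT difference of each KLF gene on the log2 scale, from its strongest peak (circles), the mean over its peaks (squares) and its strongest peak of at most 1000 bases (triangles, absent for Klf4 and Klf10); the line marks no difference and there are no replicates. The squares all lie below 0, the triangles of Klf2, Klf3 and Klf7 lie above it.

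To compare overlapping places, KLF peaks were matched where each was the other's best overlap by shared part, which gave 27 pairs. No least share was set. The exonic Klf3 pair shared 28.7% of its WT peak, the 3' UTR pair of Klf2 43.1% and the 5' UTR pair of Klf9 43.8%. Of the 27 pairs, 21 were lower in KO, against 70.2% of all 26240 such pairs in the lists. The median difference was -0.34 against -0.12. Length here is the genomic span of a peak, introns included, and it went with the difference. Most short pairs also had lower WT values than the long pairs, and length and height were not separated here. Of the 12 pairs with both peaks over 1000 bases, all 12 were lower in KO, with differences from -1.85 to -0.20 and a median of -0.68, where 79.1% of all such pairs were lower and their median was -0.25. Of the 14 pairs with both peaks at most 1000 bases, 8 were lower and 6 higher, with a median of -0.05, where 61.7% of all such pairs were lower and their median was -0.06. The last pair, the 3' UTR peaks of Klf2, had a long WT and a short KO peak.

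**Figure D5:**
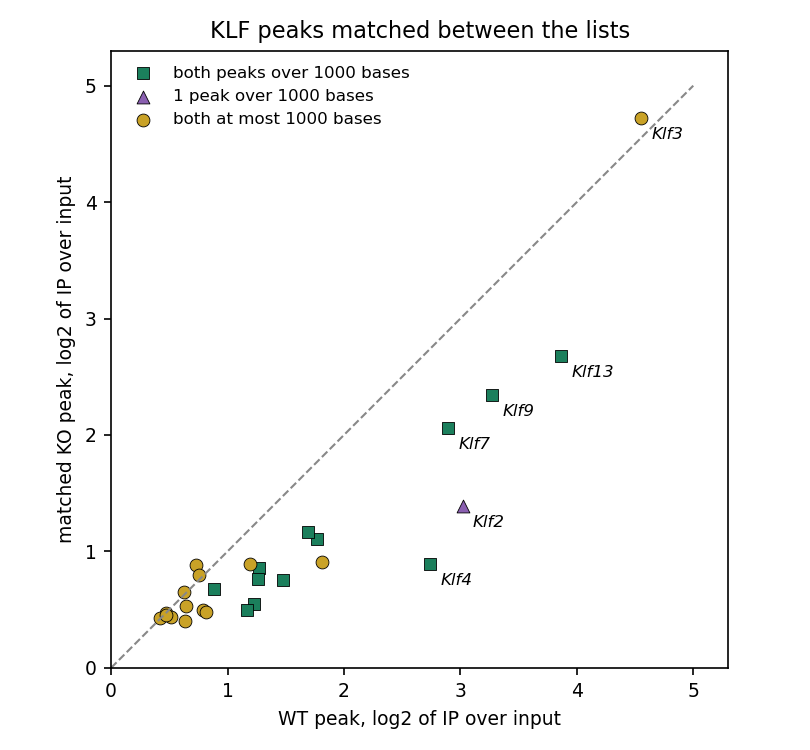
The 27 KLF peak pairs matched between the lists, with the log2 of IP over input of the WT peak on the horizontal and of the KO peak on the vertical axis, marked by the length of the peaks; the dashed line marks equal values. All 12 pairs of long peaks (squares) lie below the line, and the short pairs (circles) lie on both sides of it, with the Klf3 intronic pair at the top right.

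Pairs were also grouped by position within the message. The 3 pairs annotated as 5' UTR in both lists, in Klf4, Klf9 and Klf13, were all lower in KO, with differences from -0.91 to -0.41, where 73.8% of all such pairs were lower. The Klf2 pair at the 5' end, annotated as exonic in KO, is not among them. Short peaks that ended within 25 bases of the 3' end of the gene were matched for Klf6, Klf7, Klf9, Klf13 and Klf16. Of these 5 pairs, 2 were lower and 3 higher in KO, with differences from -0.23 to 0.16, and 54.2% of all 4897 such pairs were lower. These end peaks were weak, at most 0.75 in WT.

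A peak had a partner if a peak of the other list overlapped it by at least 1 base. KLF peaks without a partner had a median log2 of 0.72 in WT and 0.59 in KO, against 1.18 and 0.75 for KLF peaks with a partner. The medians of all peaks, with or without a partner, were 0.83 and 0.70, and they were not computed by partner. A partner was lacking for 10 of the 38 WT peaks, in Klf3, Klf6, Klf7, Klf11 and Klf16, with a log2 between 0.42 and 0.92. It was lacking for 7 of the 38 KO peaks, in Klf3, Klf7, Klf10 and Klf11, with values between 0.50 and 1.06. The share of peaks with a partner was 73.7% in WT and 81.6% in KO, against 77.2% and 72.9% of all peaks. The Klf3 WT peak of 8922 bases, at 1.14, counted as partnered only through the KO intronic peak inside it. At 50% reciprocal overlap, 23 of the 38 KLF peaks in each list had a partner, a share not computed for all peaks. No KLF peak at or above 4-fold was without a partner in the other list. The share of all 4-fold peaks with a partner was not computed, so this has no background.

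The deposited annotation placed 73.7% of the WT and 78.9% of the KO peaks of these genes in 3' UTRs, against 53.0% and 51.4% of all peaks. The 5' UTR held 6 WT peaks and 3 KO peaks, or 15.8% and 7.89%, against 11.9% of all peaks in each list. Exons held 3 and 4 peaks, or 7.89% and 10.5%, against 21.1% and 25.1% of all peaks. Introns held 1 each, the Klf3 peak, or 2.63%, against 5.58% and 4.89%. Of the strongest peaks, 8 of 10 in WT and 9 of 10 in KO were annotated as 3' UTR, against 61.0% and 62.5% for all genes. The strongest WT peak spanned more than 1000 bases in 8 of 10 genes and the strongest KO peak in 6 of 10, against 50.2% and 43.0% of all genes. Of all KLF peaks, 39.5% in WT and 34.2% in KO spanned over 1000 bases, close to the 40.1% and 38.9% of all peaks. A peak over several exons has 1 annotation and 1 value, so the long peaks of Klf7, Klf9 and Klf13 do not show where within them the mark lies.

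Relatives and partners of the family were looked up in the same lists, and their counts are read against the 73.4% of all genes that were lower in KO and the median difference of -0.25. Of 7 further KLF genes only Klf1, the erythroid factor, had a peak, at 2.53 in WT and 1.34 in KO. Of 9 SP genes, which share the zinc-finger domain, 5 had peaks in both lists and 4 of these were lower in KO, a share near that of all genes: Sp3 stood at 2.31 and 1.48, Sp4 at 2.08 and 1.65, Sp1 at 1.35 and 0.98 and Sp9 at 1.02 and 0.84. Sp2 was at 0.70 and 0.72. Of the 9 listed corepressors of KLF proteins, 8 had peaks in both lists, with 5 lower and 3 higher in KO and a median difference of -0.07, nearer 0 than that of all genes. By strongest WT peak they were led by Ctbp2 at 1.60 and 1.30, Hdac1 at 1.26 and 1.29, Sin3a at 1.04 and 0.79 and Sin3b at 1.02 and 0.88, while Ctbp1 had a single peak of 0.85 in WT and none in KO. The MEK5-ERK5-MEF2 route, which induces Klf2 and Klf4, had peaks in all 5 listed genes in both lists. The share was 87.6% among all genes with a peak in either list, a base that leaves out genes without any peak. Of the 5 genes, 4 were lower in KO, again near the share of all genes. Mapk7, which encodes ERK5, had the largest difference there, from 2.47 to 1.46, and Mef2d was higher in KO, at 0.84 and 0.98.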

How the data were processed

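Per the labels' protocols, poly(A) RNA was fragmented, precipitated with an m6A antibody and made into strand-marked libraries. Tools named without version or role in the submitters' processing notes are HISAT2, StringTie, HOMER, edgeR, fastp and FastQC. The sources used here do not give the peak caller, the build or whether replicates were pooled. Per the file headers, the authors deposited a log2 fold change and an adjusted p-value per peak, and the log2 value is taken as IP over input. The deposited length equals end minus start plus 1. Starts were counted from 0 (5098 WT and 5186 KO peaks began at their gene's start once 1 was added), so 1 was added to starts; spans are end minus start.

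Here, a gene's value is its strongest peak, and differences are KO minus WT. Overlap, by bedtools 2.31.1, is at least 1 base on the same strand; matched pairs are mutual best matches within a gene by shared over total bases, a rule chosen after seeing the data. Python 3.11.15, pandas 2.3.3, numpy 2.4.6 and matplotlib 3.10.9 were used. Only the gene differences and the peak matching were checked, on a copy of the WT list. In it some genes were removed and others lowered by a fixed amount, without noise or shifted positions. With 1 list per genotype nothing was tested, and shares over all genes or peaks serve as background. The named genes are the 10 members with all their peaks and, from each list of relatives, up to 4 with the strongest WT peak, any in 1 list only, and others named after their values were seen. Members and lists were chosen with earlier results of these data known. Alternatives were an adjusted p of at most 0.001, 4-fold peaks, peaks of at most 1000 bases, the mean over peaks, centring on all genes, merged peaks, 50% reciprocal overlap and strand ignored.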

Additional observations from a re-analysis of the deposited data

How the results depend on the processing

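A gene difference or a median counted as changed when it moved by more than 1.5 times or changed sign. A count of genes or peaks counted as changed when it moved by more than 1.5 times. Of 78 alternative values of these kinds, 54 were unchanged, among them the merged-peak values, which could not differ. With peaks of at most 1000 bases, 5 of 8 KLF genes were lower in KO and the median difference was -0.11 (-0.05 for all genes); Klf2 turned to 0.20 and Klf7 to 0.16, and Klf6 stood at -0.11, Klf11 at -0.29 and Klf13 at -0.20. Klf4 and Klf10 have no such peak in WT and give no value. Under this limit 14 of 23 WT and 14 of 25 KO peaks of the KLF genes had a partner. The share was not computed for all peaks of that length, so these counts have no background. With the mean over peaks all 10 genes were lower (77.2% of all genes), the median was -0.38, Klf3 turned to -0.28, and Klf2 stood at -0.97, Klf6 at -0.14, Klf7 at -0.29, Klf9 at -0.60 and Klf13 at -0.40. Centred on the median of all genes, Klf16 turned to 0.14, and Klf3 stood at 0.42, Klf6 at -0.41, Klf10 at -0.48 and Klf11 at -0.29. Among 4-fold peaks, 6 genes had a WT and 4 a KO peak, and 3 of the 4 in both were lower, with a median of -0.88, against 83.5% of all 1262 such genes and a median of -0.65. An adjusted p of at most 0.001, strand ignored and the 50% overlap changed no result by this measure. Merged peaks keep the strongest value, so that setting could not change a gene's strongest peak and says nothing about stability. The short-peak and 4-fold settings leave fewer peaks; other causes were not tested. No paired analysis was possible because the peak lists carry no replicate numbers, and for the same reason no replicate could be left out.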
